A study of Homo sapiens with 12 samples.

Results

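The 78 genes described here encode the proteins of the mitochondrial ribosome that carry the MRPL and MRPS symbols. They were chosen by symbol alone (MRPL or MRPS, a number and at most a letter A, B or C) from the 60671 named rows of the count table, with no measured value used. The set holds 49 MRPL and 29 MRPS genes. By the place of each protein in the ribosome, 51 belong to the large subunit and 26 to the small subunit. MRPS30 and MRPS18A are small-subunit names for proteins of the large subunit. MRPS36 is a component of the oxoglutarate dehydrogenase complex and no ribosomal part, and is counted apart.

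The mitochondrial ribosome translates the few mRNAs of the mitochondrial genome, which code for membrane subunits of the respiratory chain and of ATP synthase. Its RNAs are transcribed inside the organelle, but every one of its proteins is encoded in the nucleus, made on cytosolic ribosomes and imported. Some of these proteins have a bacterial counterpart, and others exist in mitochondrial ribosomes alone.

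RNA came from HCT116, an established human colorectal carcinoma line, labelled wild type. There were 4 groups of 3 samples. Control cells stayed in full DMEM with serum and antibiotics for 24 h or 48 h. Deprived cells were washed and given DMEM with serum, antibiotics and 0 mM cystine (the oxidised dimer of cysteine) for the same times. The washing and medium change are described for the deprived cells only, so their part and that of the missing cystine cannot be told apart. Whether replicates were grown as separate cultures is not stated in the labels; if they were not, the p-values measure technical spread alone.

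The libraries held 19146108 to 24179533 counts. Within a group they differed by more than counting noise (chi-square per degree of freedom 4.14 to 6.42 over genes), so no library was a copy of another. The 6 colon epithelial markers (EPCAM, CDH1, KRT8, KRT18, KRT19 and CLDN7) summed to 3758 to 5518 CPM in the 12 libraries, where CPM stands for counts per 1000000 counts over the genes tested. Fibroblast, leukocyte and endothelial markers summed to at most 1.51, 0.780 and 2.41 CPM, with PTPRC and CD3E at 0 in every library. The epithelial sum itself was higher without cystine, at 5296 to 5429 CPM against 3758 to 4172 CPM in controls at 24 h, and its part in the results below was not tested. Mitochondrially encoded RNAs took 6.99% of counts in controls and 6.55% without cystine at 24 h, and 8.54% and 7.83% at 48 h (means, n = 3).

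All 78 genes passed the filter on low counts, and the lowest count of any of them in any library was 243. The typical fold change therefore had a standard error (SE) of only 0.07 on the log2 scale. Levels below are CPM, scaled between libraries by the trimmed mean of M values (TMM). A gene is said to rise or fall when the adjusted p of edgeR's quasi-likelihood test, corrected by the Benjamini-Hochberg method over all 16994 genes tested, was under 0.05. In bulk RNA these levels are relative to the whole library, and fewer cells of a type cannot be told apart from less RNA per cell.

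Without cystine the mitochondrial ribosomal protein genes went in both directions: the 48 h ratios of deprived to control ran from 0.469 for MRPL14 to 3.23 for MRPL24. At 24 h, 28 of the 78 rose and 18 fell, beside 28.8% of all genes tested that rose and 26.9% that fell. At 48 h, 39 rose and 22 fell, beside 33.5% and 34.9% of all genes tested. The median log2 fold change of the 78 was 0.08 at 24 h and 0.17 at 48 h, beside -0.01 and -0.02 over all genes tested. The 24 h counts were close to the background in each direction, while at 48 h the 39 that rose are 50% of the members. The 24 h split also depended on the scaling: with upper-quartile scaling 22 rose and 24 fell, and with library totals alone 22 rose and 25 fell. All genes tested moved with it: 24.5% rose and 31.2% fell with upper-quartile scaling, and 24.0% and 31.3% with library totals, their median being -0.08 under both.

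Taken as a sum of TMM-scaled levels, the 78 genes stood slightly higher in deprived cells. Their levels summed to 3361, 3520 and 3462 CPM in controls at 24 h and to 3796, 3677 and 3759 CPM in deprived cells. At 48 h the sums were 3105, 3287 and 3372 CPM in controls and 3589, 3890 and 3896 CPM without cystine. These scaled sums did not overlap between the groups at either time, and the ratio of the means was 1.09 at 24 h and 1.17 at 48 h. Without TMM, their share of the counts of named genes at 24 h was 0.351%, 0.364% and 0.353% in controls. In deprived cells it was 0.373%, 0.363% and 0.367%, which overlaps the controls. At 48 h the shares were 0.316%, 0.323% and 0.337% in controls and 0.365%, 0.377% and 0.377% without cystine, and stayed apart. Such sums are descriptions, and abundant members weigh most in them.

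**Figure D1:**
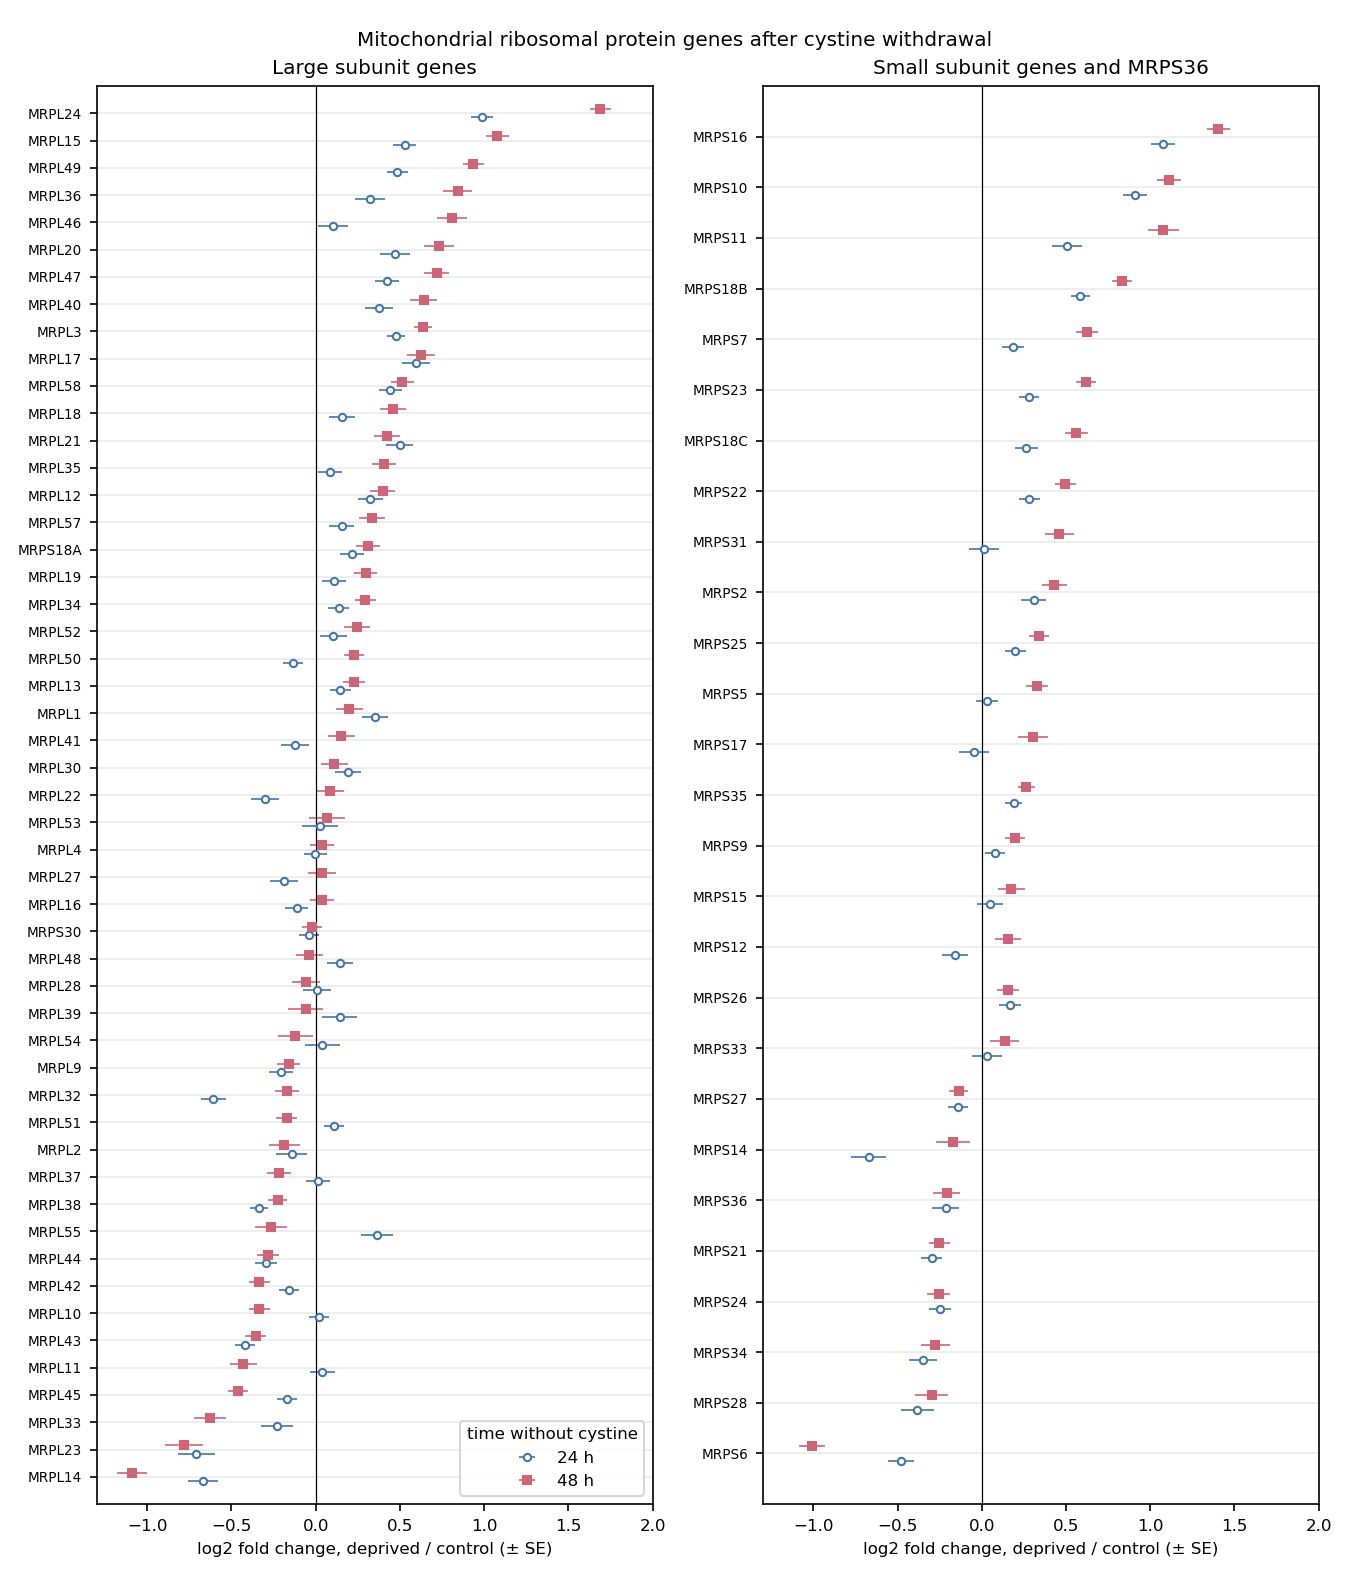
Log2 fold change, deprived over control, with its SE (horizontal bars) for the large subunit genes (left) and the small subunit genes with MRPS36 (right), at 24 h (open circles) and 48 h (squares). MRPL24, at 1.69, and MRPL14, at -1.09, mark the extremes at 48 h, and most genes lie on the same side of 0 at both times.

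The direction was largely shared between the times. Of the 28 genes that rose at 24 h, 26 also rose at 48 h, which is 92.9% of the former and 66.7% of the 39. Of the 18 that fell at 24 h, 16 also fell at 48 h, which is 88.9% of the former and 72.7% of the 22. Across the 78 genes the fold changes at the 2 times had a Pearson correlation of 0.86, beside 0.71 over all genes tested. The 2 comparisons share no samples, but they share the normalization, and genes are not independent replicates. A single gene, MRPL55, was called in opposite directions, and 14 were called at neither time (MRPL2, MRPL4, MRPL16, MRPL27, MRPL28, MRPL39, MRPL41, MRPL48, MRPL53, MRPL54, MRPS12, MRPS15, MRPS30 and MRPS33).

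The changes were moderate in size. Past 1 on the log2 scale were 1 gene up and none down at 24 h, and 5 up and 2 down at 48 h. The middle 50% of the members spanned 0.43 at 24 h and 0.63 at 48 h on the log2 scale, narrower than the 0.73 and 1.10 of all genes tested. Deprived and control samples did not overlap at all for 57 of the 78 genes at 24 h and for 58 at 48 h; 45 and 57 of these also passed the test. Over all genes tested the groups were apart for 62.8% at 24 h and 70.0% at 48 h, and were apart and passed for 53.9% and 65.4%.

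Of the 26 small subunit genes, 12 rose and 7 fell at 24 h, and 16 rose and 6 fell at 48 h, with a median log2 fold change of 0.06 and then 0.28. Of the 51 large subunit genes, 16 rose and 10 fell at 24 h, and 23 rose and 15 fell at 48 h, with medians of 0.10 and 0.09. The difference between the subunits was not tested. At 24 h the small-subunit median ran from -0.01 to 0.06 over the scalings, and that of all genes tested from -0.08 to -0.01.

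Genes were also grouped by the origin of the protein. The 29 large subunit genes with a bacterial counterpart had a 48 h median of 0.20, with 15 up and 7 down. The 22 without one had a median of -0.03, with 8 up and 8 down. In the small subunit the 16 genes with a bacterial counterpart (9 up, 4 down, median 0.25) and the 10 without (7 up, 2 down, median 0.30) had similar medians. These are counts and medians of lists, and none of the differences between them was tested.

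MRPL24 changed most of all 78. It encodes a large subunit protein whose bacterial counterpart binds early in assembly, and lies on chromosome 1 at 156737303 to 156741590 (GRCh38, minus strand). Its level was 35.4, 35.6 and 37.5 CPM in controls and 73.4, 69.9 and 71.7 CPM in deprived cells at 24 h. At 48 h it was 32.1, 32.1 and 30.6 CPM in controls and 92.0, 107 and 107 CPM without cystine. Every deprived sample was far above every control, and the deprived samples were higher at 48 h than at 24 h. Controls were lower at 48 h than at 24 h (-0.20 ± 0.07, adjusted p = 0.0415). The log2 fold change was 0.99 ± 0.06 (SE) at 24 h and 1.69 ± 0.06 at 48 h, a 3.23-fold rise (adjusted p = 2.35e-14). The effect was larger at 48 h by 0.70 ± 0.09 (adjusted p = 5.66e-06). No exonic base of MRPL24 is shared with another annotated gene.

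MRPS16 and MRPS10 led the small subunit. MRPS16, a small subunit protein with a bacterial counterpart (chromosome 10, 73248843 to 73252693, minus strand), was at 44.1, 54.5 and 50.7 CPM in controls and 102, 105 and 106 CPM in deprived cells at 24 h. At 48 h its levels were 39.6, 45.1 and 44.7 CPM against 108, 116 and 118 CPM. Control and deprived samples were fully separate. The rise was 2.11-fold at 24 h (log2 1.07 ± 0.07) and 2.65-fold at 48 h (1.41 ± 0.07, adjusted p = 1.56e-12). DNAJC9, whose exons overlap 14.9% of the exonic bases of MRPS16 on the same strand, itself rose by 0.62 ± 0.05 and 0.76 ± 0.06 on the log2 scale, and the part of shared reads was not tested.

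MRPS10, a protein of the small subunit head (chromosome 6, 42206801 to 42217865, minus strand), was at 46.0, 48.6 and 41.7 CPM in controls and 88.5, 82.4 and 85.1 CPM in deprived cells at 24 h. At 48 h it was at 33.4, 40.1 and 38.9 CPM against 78.8, 81.8 and 81.8 CPM. The deprived samples stood about as high at both times, and the controls were lower at 48 h. On the log2 scale the rise was 0.91 ± 0.07 and then 1.11 ± 0.07, and the difference between them did not pass the test (0.20 ± 0.10, adjusted p = 0.118). MRPS10 shares no exonic base with another gene.

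MRPL15, a large subunit protein that contacts the 16S rRNA, rose in 2 steps. Its controls were at 30.03, 30.04 and 29.8 CPM at 24 h and 24.2, 27.7 and 29.1 CPM at 48 h. Without cystine it reached 44.5, 41.3 and 43.8 CPM at 24 h and 53.8, 58.0 and 59.1 CPM at 48 h. On the log2 scale the rise grew from 0.53 ± 0.07 to 1.08 ± 0.07, a difference of 0.55 ± 0.10 (adjusted p = 0.000223).

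MRPL46 and MRPS11 are neighbours that point away from each other on chromosome 15, the first at 88459476 to 88467419 on the minus strand and the second at 88467453 to 88480773 on the plus strand. Their annotated starts are 34 bases apart, so 1 stretch of DNA lies in front of both a large subunit and a small subunit gene. The gap between them, taken from RefSeq sequence (GRCh38.p14, chr15:88467420-88467452) and written on the strand of MRPL46, is:
MRPL46 and MRPS11 gap: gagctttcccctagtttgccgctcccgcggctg
MRPS11 was at 18.4, 22.1 and 22.5 CPM in controls and 31.3, 28.1 and 30.1 CPM in deprived cells at 24 h, then at 14.7, 16.0 and 17.9 against 31.1, 36.1 and 35.5 CPM at 48 h. MRPL46 was at 18.2, 16.6 and 18.3 CPM in controls and 19.3, 17.5 and 20.3 CPM in deprived cells at 24 h, which overlap. At 48 h MRPL46 stood at 11.4, 13.0 and 12.6 CPM in controls and 20.0, 23.9 and 21.0 CPM without cystine.
The pair therefore differed at 24 h, where MRPS11 rose (0.51 ± 0.09) and MRPL46 did not pass the test (0.10 ± 0.09, adjusted p = 0.343). Both rose at 48 h, by 1.08 ± 0.09 and 0.81 ± 0.09. Controls lost some of both transcripts between 24 h and 48 h (MRPL46 fell by 0.52 and MRPS11 fell by 0.37 on the log2 scale). The part of the control samples in the 48 h contrast was not tested. The gene model AC013489.1, at group means of 1.80 to 3.58 CPM, overlaps 11.3% of the exonic bases of MRPL46 on the same strand. Its own changes (1.00 ± 0.43 and -0.74 ± 0.42) did not pass the test. On the other strand, AC013489.3 overlaps 9.17% of the exonic bases of MRPS11. The part of shared reads was not tested.

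Other genes of the large subunit rose less. MRPL17, a protein near the exit of the peptide tunnel, rose by the same amount at both times (0.60 ± 0.08 and 0.62 ± 0.08). MRPL36, the counterpart of the smallest bacterial ribosomal protein, went from 0.32 ± 0.09 to 0.84 ± 0.09. MRPL3, which reaches towards the peptidyl transferase centre, rose by 0.48 ± 0.05 and 0.64 ± 0.05. MRPL58, a peptidyl-tRNA hydrolase that became part of the ribosome and releases stalled chains, rose by 0.44 ± 0.07 and 0.51 ± 0.07. MRPL12, which forms the stalk that recruits translation factors, rose by 0.33 ± 0.07 and 0.40 ± 0.07. For MRPL12, 68.2% of the annotated exonic bases are shared with another gene model on the same strand, AC139530.2, listed at group means of 4.02 to 9.50 CPM, so reads between the 2 cannot be told apart.

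The 3 MRPS18 paralogs all rose, to different degrees. MRPS18B, a mitochondria-specific small subunit protein, was at 56.1, 55.5 and 59.2 CPM in controls and 86.5, 85.3 and 84.2 CPM in deprived cells at 24 h. It reached 90.5, 97.8 and 100.4 CPM at 48 h, against 50.9, 56.3 and 54.9 CPM in controls (log2 0.58 ± 0.06, then 0.83 ± 0.06). MRPS18C, the paralog that fills the bacterial S18 position, rose by 0.26 ± 0.07 and 0.56 ± 0.07. MRPS18A, which sits in the large subunit, rose by 0.22 ± 0.07 and 0.31 ± 0.07. Exons of genes on the other strand overlap 40.2% of MRPS18C and 47.0% of MRPS18A, and the sources used here do not say whether counting was stranded. MRPS18A no longer passed the test at 24 h with upper-quartile scaling (0.15), with library totals (0.14), or without control sample 2 (0.20) or deprived sample 1 (0.18) of that time.

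MRPL14 fell most. The protein lies at the interface of the large subunit, where assembly factors hold off the small subunit, and the gene is on chromosome 6 at 44113454 to 44127457 (minus strand). Its controls were at 33.1, 34.6 and 31.6 CPM at 24 h and 35.2, 35.9 and 34.8 CPM at 48 h. Deprived cells held 20.0, 21.2 and 21.2 CPM at 24 h and 14.0, 19.5 and 16.1 CPM at 48 h. Controls were steady, and deprived samples lay below them throughout. MRPL14 had a log2 fold change of -0.67 ± 0.09 at 24 h and -1.09 ± 0.09 at 48 h (adjusted p = 2.03e-09). The fall was deeper at 48 h (-0.43 ± 0.13, adjusted p = 0.0125).

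MRPS6, a small subunit protein with a bacterial counterpart (chromosome 21, 34073224 to 34143034, plus strand), fell alongside it. It was at 41.9, 41.4 and 42.1 CPM in controls and 31.4, 27.4 and 31.1 CPM in deprived cells at 24 h. At 48 h it stood at 51.7, 58.1 and 60.0 CPM in controls and at 25.1, 29.8 and 29.4 CPM without cystine. The deprived level was nearly the same at both times, while the control level was higher at 48 h (0.44 ± 0.07, adjusted p = 0.000344). The deprivation contrast thus went from -0.48 ± 0.08 to -1.01 ± 0.08. SLC5A3, a sodium and myo-inositol cotransporter gene that overlaps 9.61% of the exonic bases of MRPS6 together with a noncoding transcript on the same strand, fell by 1.54 ± 0.09 at 24 h and by 2.27 ± 0.09 at 48 h. The part of reads shared between the 2 genes was not tested.

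MRPL23 and MRPL45, both found around the exit of the peptide tunnel, were lower as well. MRPL23 was at 25.2, 28.9 and 28.0 CPM in controls and 16.0, 16.4 and 17.6 CPM in deprived cells at 24 h, and at 19.4, 26.2 and 28.0 against 13.3, 14.1 and 15.3 CPM at 48 h. Its fold change hardly moved between the times (-0.71 ± 0.11 and -0.78 ± 0.11). MRPL45, which tethers the ribosome to the inner membrane, fell by 0.17 ± 0.06 and then by 0.46 ± 0.06; the 24 h call was lost without control sample 1 (-0.16) or deprived sample 2 (-0.13). MRPL33, another large subunit protein, fell at 48 h by 0.63 ± 0.10, and at 24 h missed the threshold (-0.23 ± 0.10, adjusted p = 0.0502), though 11 of the 20 alternative analyses called it. BABAM2 overlaps 21.1% of the exonic bases of MRPL33 on the same strand and rose by 0.96 ± 0.11 and 1.21 ± 0.11. MRPS36, the oxoglutarate dehydrogenase component, fell slightly at both times (-0.21 ± 0.08, adjusted p = 0.03 at 24 h and 0.027 at 48 h), a call that DESeq2 did not make at either time (adjusted p = 0.0564 and 0.0729). It was also lost at 24 h without control sample 2 or 3 or deprived sample 2, and at 48 h without control or deprived sample 2 or 3 (-0.15 to -0.22 in these). With no filter on low counts the MRPS36 call was lost at both times (adjusted p = 0.088 and 0.104). With the compared groups alone it was lost at 48 h (adjusted p = 0.058).

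**Figure D2:**
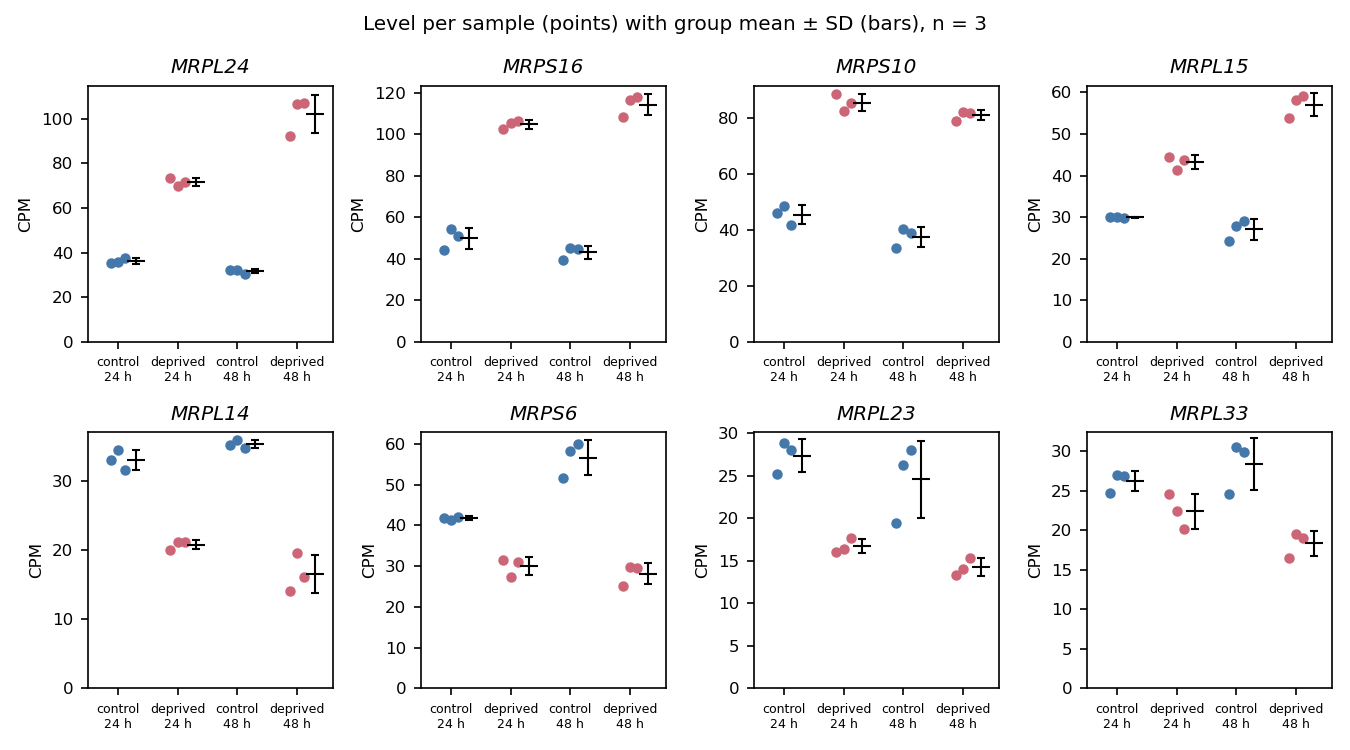
Level in CPM (vertical axes from 0, different for each panel) of 4 genes that rose and 4 that were lower, in each of the 12 samples (points), with the group mean and SD beside them (bars, n = 3). Deprived samples of MRPL24 lie at 69.9 CPM or more and its controls at 37.5 CPM or less, and those of MRPL14 lie at 21.2 CPM or less with controls at 31.6 CPM or more.

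The effect of deprivation differed between 24 h and 48 h for 30 of the 78 genes. By the interaction term, 22 had a more positive effect at 48 h and 8 a more negative one, beside 16.4% and 19.2% of all genes tested. The median difference was 0.11, beside -0.01 over all genes. Small subunit genes, 26 of the 78, made up 11 of the 22 and 1 of the 8, and that 1 was MRPS6. Of the 51 large subunit genes, 11 had a more positive and 7 a more negative effect. The split by subunit was not tested.

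Several of these genes differed in their timing. MRPL32, whose protein must be cut by the m-AAA protease before it joins the ribosome, was at 32.4, 34.0 and 32.4 CPM in controls and 22.8, 21.3 and 20.9 CPM in deprived cells at 24 h. At 48 h it was at 26.3, 26.5 and 26.9 against 22.5, 22.3 and 26.0 CPM. The early fall of 0.61 ± 0.07 shrank to 0.17 ± 0.07 (adjusted p = 0.0443), and 15 of 20 alternative analyses did not call the later value. The 48 h controls of MRPL32 had themselves fallen by 0.31.

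MRPS14, a protein of the small subunit head, showed the same course, with 20.1, 23.0 and 24.1 CPM in controls and 15.4, 12.8 and 14.0 CPM in deprived cells at 24 h. At 48 h its levels of 20.6, 20.1 and 18.9 CPM in controls and 14.9, 18.3 and 19.7 CPM without cystine overlapped. The log2 fold change was -0.67 ± 0.10 and then -0.17 ± 0.10 (adjusted p = 0.14), a difference of 0.50 ± 0.15 (adjusted p = 0.0117).

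MRPL11, at the base of the factor-binding stalk, went the other way. Its samples overlapped at 24 h, with 56.7, 68.8 and 60.7 CPM in controls and 65.7, 62.9 and 62.7 CPM in deprived cells. At 48 h the controls were at 49.8, 50.4 and 59.1 CPM and the deprived samples, all lower, at 36.9, 39.9 and 41.6 CPM. The log2 fold change was 0.04 ± 0.08 at 24 h (adjusted p = 0.684) and -0.43 ± 0.08 at 48 h.

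MRPL55, a mitochondria-specific large subunit protein, changed sign. Controls were at 12.2, 12.5 and 13.4 CPM and deprived cells at 17.1, 15.8 and 16.0 CPM at 24 h. At 48 h controls were at 15.1, 17.0 and 18.8 CPM and deprived cells at 13.9, 13.0 and 15.3 CPM, so the groups overlapped. The fold change went from 0.36 ± 0.10 to -0.27 ± 0.09, and the interaction was -0.63 ± 0.13 (adjusted p = 0.00123). The 48 h call was lost without control sample 3 (-0.18) or deprived sample 2 (-0.21) of that time.

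In full medium, 20 of these genes changed with time, most of them downwards. Between 24 h and 48 h in controls 3 rose and 17 fell, beside 12.7% and 10.4% of all genes tested, with a median of -0.11. The 3 that rose were MRPS6 (0.44), MRPL55 (0.42) and MRPL10 (0.34). Leaving out control sample 2 or 3 of 24 h gave 10 or 11 that fell, leaving out control sample 1 or 2 of 48 h gave 10, and library totals alone gave 28, beside 15.2% of all genes tested. In deprived cells 13 rose and 14 fell over the same interval, beside 20.7% and 21.8%, with a median of 0.02. Leaving out deprived sample 1 of 24 h gave 7 that fell, and sample 1 of 48 h gave 9. MRPL24 (0.51 ± 0.06) had the highest value there and MRPL11 (-0.69 ± 0.08) the lowest. The deprivation contrast at 48 h and the time contrast in controls share their control samples.

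MRPS30, a large subunit protein, was among the genes called at neither time. It was at 94.4, 96.0 and 94.0 CPM in controls and 97.2, 88.6 and 90.9 CPM in deprived cells at 24 h, and at 103, 90.0 and 101 against 98.1, 98.4 and 92.9 CPM at 48 h. The groups overlapped at both times, and the log2 fold changes of -0.04 ± 0.06 and -0.02 ± 0.06 did not pass the test (adjusted p = 0.587 and 0.747).

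The mRNAs of the 78 genes were present at very different levels. Per kilobase of the deposited gene length, mean levels ran from 7.47 to 116 CPM per kilobase (RPKM), a 15.5-fold range with a median of 32.7 RPKM. MRPL42, a mitochondria-specific large subunit protein, was highest by the mean over the 4 groups, with 127 ± 4.82 RPKM (SD, n = 3) in controls and 114 ± 6.82 in deprived cells at 24 h, and 124 ± 3.5 and 98.1 ± 6.48 at 48 h. MRPL3 rose without cystine, from 84.8 ± 3.04 to 118 ± 5.11 RPKM at 24 h and from 77.2 ± 2.34 to 120.3 ± 5.79 RPKM at 48 h. The level of MRPL12 was 83.5 ± 7.09 RPKM in controls and 109.9 ± 11 RPKM in deprived cells at 48 h. By then MRPL3, MRPL24 (116 ± 9.78 RPKM) and MRPL12 all stood above MRPL42 without cystine. After 24 h without cystine the neighbours in the order MRPL3, MRPL42 and MRPL12 (113 ± 2.54 RPKM) differed by less than the larger of their SDs.

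By the mean over the 4 groups MRPS11, MRPL19 and MRPS25 were at the low end, but the order was not the same in each group. MRPS11 had 4.78 ± 0.475 RPKM in controls and 10.1 ± 0.798 RPKM in deprived cells at 48 h. MRPL19 had 7.45 ± 0.559 and 9.16 ± 0.534 RPKM, and MRPS25 had 7.50 ± 0.255 and 9.50 ± 0.0533 RPKM in the same groups. In deprived cells MRPS14 was lowest at both times, with 6.66 ± 0.596 RPKM at 24 h and 8.34 ± 1.16 RPKM at 48 h, the latter within its SD of MRPL30 (8.92 ± 0.209) and MRPL19. The deposited lengths of MRPS11, MRPL19 and MRPS25, 3392 to 7825 bases, are long beside the 701 bases of MRPL42, and a level per length depends on which transcript that length describes.

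The genes that build and serve the mitochondrial ribosome rose more often than they fell. Of 29 genes for assembly and rRNA modification, 14 rose and 2 fell at 24 h, and 20 rose and 3 fell at 48 h (median log2 fold change 0.39). SUPV3L1, a mitochondrial RNA helicase, rose by 0.87 ± 0.07 and 1.25 ± 0.07. FASTKD2, needed for handling the 16S rRNA, rose by 0.54 ± 0.06 and 1.04 ± 0.06. NOA1, an assembly GTPase, fell by 0.56 ± 0.06 and 1.05 ± 0.06. Of the 5 ribosomal proteins with other names, 1 rose at 24 h, and 3 rose and 1 fell at 48 h. Among them were DAP3 (0.32 ± 0.06 at 48 h), CHCHD1 (0.41 ± 0.08) and GADD45GIP1 (0.52 ± 0.08).

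Translation factors were divided at 24 h, with 7 of 16 up and 5 down at 24 h and 9 up and 2 down at 48 h. GUF1, a GTPase of the elongation factor 4 family, rose by 1.04 ± 0.07 and 1.13 ± 0.07. GFM2, a ribosome recycling factor, rose by 0.73 ± 0.06 and 1.10 ± 0.06. MTIF2, the initiation factor, rose by 0.83 ± 0.05 and 0.84 ± 0.05. TUFM, the elongation factor that delivers aminoacyl-tRNA, fell at 24 h (-0.41 ± 0.06) and did not pass at 48 h (-0.13 ± 0.06, adjusted p = 0.0922). LRPPRC, which stabilises mitochondrial mRNAs, fell by 0.22 ± 0.05 and 0.29 ± 0.05. Of 17 mitochondrial aminoacyl-tRNA synthetases, 4 rose and 3 fell at 24 h and 5 rose and 4 fell at 48 h, with AARS2 up (0.71 ± 0.09 at 48 h) and SARS2 down (-0.54 ± 0.07).

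The mRNAs that the ribosome reads went mostly down, while the rRNAs it is built on differed from each other. Of the 13 mRNAs of the mitochondrial genome, 9 fell and 1 rose at 24 h, and 10 fell and 1 rose at 48 h (median -0.21). MT-CYB, for cytochrome b, fell by 0.34 ± 0.06 and 0.78 ± 0.06, and MT-ND3, for a complex I subunit, fell by 0.53 ± 0.06 and 0.37 ± 0.06. The 12S rRNA of the small subunit, MT-RNR1, fell by 0.68 ± 0.07 and 0.34 ± 0.07. The 16S rRNA of the large subunit, MT-RNR2, rose by 0.26 ± 0.06 at 24 h and did not pass at 48 h (0.11 ± 0.06, adjusted p = 0.116). No source used here states how rRNA was removed or mRNA selected, and the rRNA values depend on what that step left.

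Regulators of nuclear genes for mitochondria gave a mixed picture. PPRC1, a coactivator of the PGC-1 family, rose by 0.66 ± 0.07 and 0.93 ± 0.07, and GABPB1, a subunit of the ETS factor GABP, by 0.79 ± 0.07 and 0.69 ± 0.07. Its DNA-binding partner GABPA fell by 0.18 ± 0.08 and 0.21 ± 0.08. NRF1, a factor named for nuclear respiratory genes, rose at 24 h (0.42 ± 0.08) and fell at 48 h (-0.34 ± 0.08). MYC rose by 0.44 ± 0.06 and 0.25 ± 0.06, and ESRRA by 0.17 ± 0.06 and 0.35 ± 0.06. TFAM, which packages mitochondrial DNA, rose at 48 h (0.31 ± 0.06), as did the elongation factor TEFM (1.20 ± 0.12). PPARGC1A had at most 2 counts in a library and was not tested.

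Set beside other parts of the organelle, the ribosomal protein genes lay in between. Genes for import into mitochondria rose most often, 18 of 26 at 24 h and 19 at 48 h with 5 down at each time (48 h median 0.52), led by TIMM44 (0.93 ± 0.06 and 1.63 ± 0.06) and HSPA9 (1.12 ± 0.05 and 1.20 ± 0.05), both parts of the import motor. Of 37 complex I subunit genes, 4 rose and 21 fell at 24 h and 12 rose and 16 fell at 48 h. Of 15 ATP synthase genes tested, 1 rose and 12 fell at 24 h and 1 rose and 10 fell at 48 h. Of 18 genes of the tricarboxylic acid cycle, 1 rose and 10 fell at 24 h and 4 rose and 9 fell at 48 h, IDH2 by 0.98 ± 0.07 and 2.60 ± 0.08.

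The cytosolic ribosome gave another picture at 48 h. Of 82 cytosolic ribosomal protein genes tested, 12 rose and 12 fell at 24 h, and 4 rose and 65 fell at 48 h. The median was 0.00 at 24 h (-0.07 to 0.00 over the scalings) and -0.34 at 48 h, beside 0.08 and 0.17 for the mitochondrial ones. RPS9 fell by 0.43 ± 0.06 and 1.19 ± 0.06, and RPL23A by 0.22 ± 0.05 and 0.86 ± 0.05. The list was drawn by symbol and includes the paralog RPL7L1, which rose (0.50 ± 0.05 and 0.81 ± 0.05). The difference between the 2 ribosomes was not tested. Many cytosolic genes have near-identical processed copies, so their counts are less certain.

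**Figure D3:**
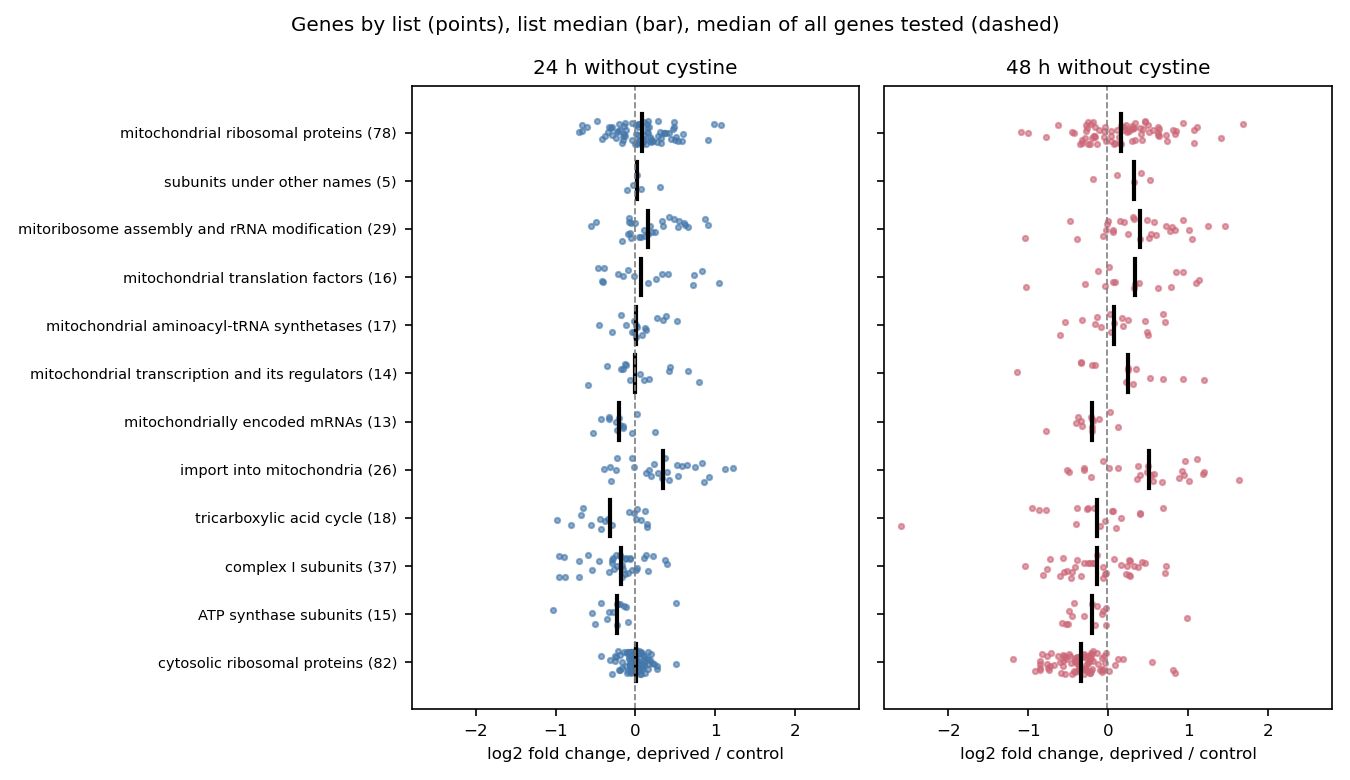
Log2 fold change, deprived over control, of each tested gene (points) in 12 lists at 24 h (left) and 48 h (right), with the median of the list (black bar) and of all genes tested (dashed line). At 48 h the median of the mitochondrial ribosomal proteins is 0.17, between 0.52 for import genes and -0.34 for cytosolic ribosomal proteins.

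Many of the 78 genes start close to a neighbour on the other strand, and whether such pairs share a promoter was not tested. A start here is the outermost annotated base of a gene, which its other transcripts need not use. Some pairs may therefore lie close only for the longest transcript. For 29 of the 78 genes a protein-coding gene starts within 1000 bases on the opposite strand, and in 27 such pairs both genes were tested. MRPL32 is in 2 of these, with PSMA2 and with the gene model AC010132.3. At 48 h both genes of a pair were called in the same direction in 8 pairs and in opposite directions in 7, and at 24 h in 4 and 6. With MRPS11 taken as the neighbour of MRPL46, only the neighbour was called in 4 pairs at 48 h and 7 at 24 h. Only the other gene was called in 7 and 5, and neither in 1 and 5. Over all genes tested 33.5% rose and 34.9% fell at 48 h, and 28.8% and 26.9% at 24 h. Such pairs of other genes were not counted. MRPL51 starts 485 bases from NCAPD2, a condensin subunit gene that fell by 3.43 ± 0.06 at 48 h, while MRPL51 fell by 0.17. MRPL57 starts 43 bases from SKA3, a kinetochore gene that fell by 1.60 ± 0.09, while MRPL57 rose by 0.33. MRPL27 starts 6 bases from EME1, a subunit of a DNA structure-specific nuclease that fell by 1.71 ± 0.14, with MRPL27 at 0.04 (adjusted p = 0.708).

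MRPL36, up by 0.84, starts 34 bases from NDUFS6, a complex I subunit gene that fell by 0.72 ± 0.09. MRPL43 fell by 0.36, beside the mitochondrial DNA helicase gene TWNK, which rose by 1.32 ± 0.07. MRPL21 and IGHMBP2, 7 bases apart, rose together by 0.42 and 0.73. These pairs were named after their values were seen, and where starts overlap, reads from the 2 strands can be told apart only if counting was stranded. NCAPD2 overlaps 31.3% of the exonic bases of MRPL51, and TWNK with SEMA4G 36.9% of those of MRPL43. The part of such reads was not tested.

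**Figure D4:**
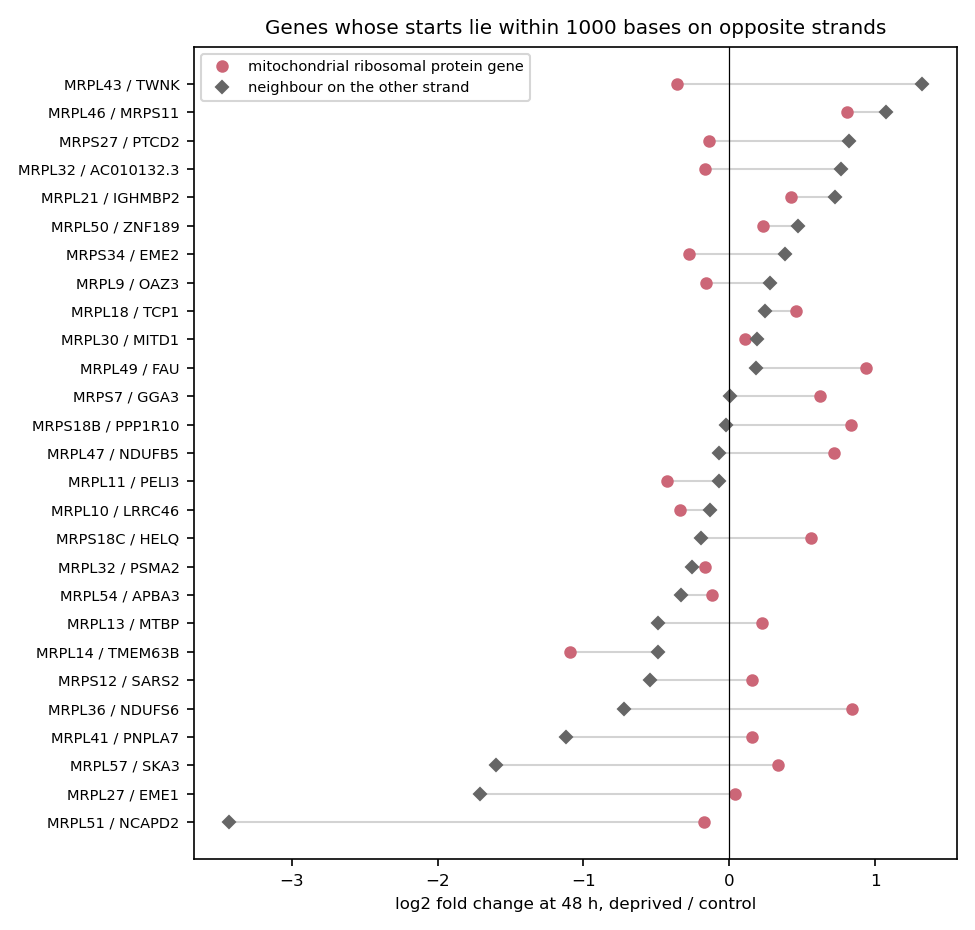
Log2 fold change at 48 h, deprived over control, of a mitochondrial ribosomal protein gene (circles) and of the protein-coding gene that starts within 1000 bases on the opposite strand (diamonds), 1 row for each of 27 pairs, ordered by the neighbour. The neighbours span -3.43 (NCAPD2) to 1.32 (TWNK), more than the ribosomal protein genes beside them, which span -1.09 (MRPL14) to 1.08 (MRPS11, drawn as the neighbour of MRPL46).

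Sequence around the starts was taken from a prepared set of RefSeq promoter windows (GRCh38.p14), which held 69 of the 78 genes. The set had no window for MRPL2, MRPL10, MRPL13, MRPL15, MRPL21, MRPL23, MRPL35, MRPS28 and MRPS36. Its starts need not be those of the gene coordinates given above. Each window covers 250 bases before and 50 after the annotated start, 300 in all. Each motif was searched by its exact letters on both strands: AAGATGGC for the factor YY1, CCGGAAGT for ETS factors such as GABP, GCGCATGC for NRF1, CACGTG for E-box factors and TGATGCAA for ATF4 with a C/EBP partner. The NRF1 letters overlap their own reverse complement in the palindromic form of the site, and no motif's letters contain another's.

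The YY1 letters were the most frequent, in 21 of the 69 genes (30.4%), beside 4.66% of 15843 protein-coding genes and 2.89% of all 35116 windows. The ETS letters were in 12 (17.4%, beside 6.97% of protein-coding genes and 4.14% of windows). The E-box was in 9 (13.0%, beside 10.9% and 7.26%) and the NRF1 letters in 6 (8.70%, beside 4.89% and 3.05%). The ATF4 letters were in none, beside 0.903% of protein-coding genes. These shares are descriptions without a test, and a match is not a site of binding.

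**Figure D5:**
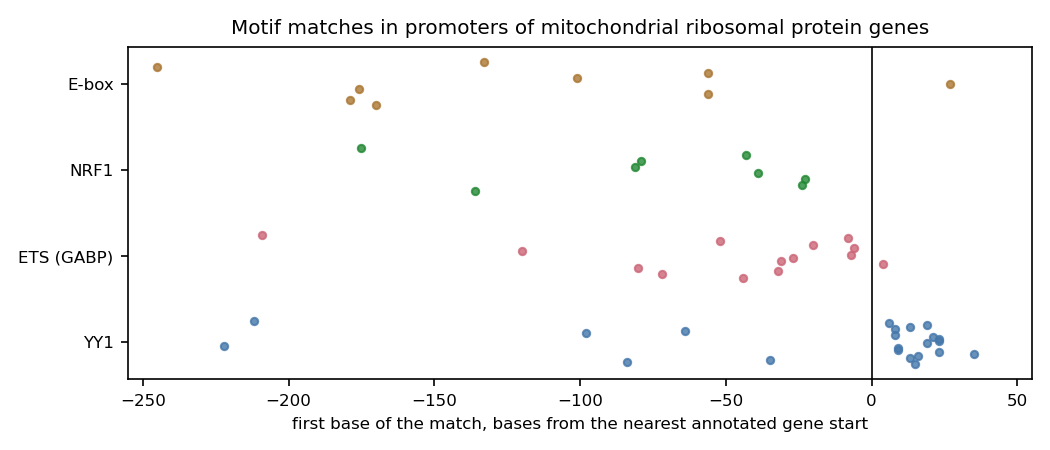
Position of the first base of each motif match relative to the nearest annotated gene start (0, vertical line) in the RefSeq windows of mitochondrial ribosomal protein genes, 1 row of points for each motif. Of 22 YY1 matches 16 lie after the start, and of 14 ETS matches 8 lie in the last 50 bases before it.

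Most of the YY1 matches were in transcribed sequence. On the strand of the gene there were 18 matches in 17 member genes, and 16 of them began 6 to 35 bases after the start. In 13 of the 18 (72.2%) the letters ATG within the match are an annotated start codon, beside 264 of 542 (48.7%) in other protein-coding genes. The same letters can thus read as the opening of a coding sequence, and counting the 250 bases before the start alone left 7.25% of member genes with a match, beside 1.77% of protein-coding genes. To show how alike these openings are in genes that rose, fell or did not pass, 30 bases around the match follow for 7 genes, with the 8 letters in capitals:
MRPS10: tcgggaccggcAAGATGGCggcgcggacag
MRPS18B: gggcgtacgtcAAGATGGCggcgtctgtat
MRPS18A: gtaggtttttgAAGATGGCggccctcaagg
MRPL46: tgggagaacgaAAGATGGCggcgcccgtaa
MRPS30: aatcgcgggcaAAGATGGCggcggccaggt
MRPL45: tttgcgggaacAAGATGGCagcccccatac
MRPL42: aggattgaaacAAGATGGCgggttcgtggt
They lie, in this order, at chr6:42217834-42217863 (minus strand), chr6:30617852-30617881 (plus), chr6:43687764-43687793 (minus), chr15:88467362-88467391 (minus), chr5:44808949-44808978 (plus), chr17:38297170-38297199 (plus) and chr12:93467511-93467540 (plus). The ATG is an annotated start codon in all of these but MRPL42.

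Genes with the YY1 letters did not share a direction. Of the 21, 11 rose and 7 fell at 48 h (median 0.23), and of the 48 without, 24 rose and 11 fell (median 0.16). In the 7 genes printed, the 48 h log2 fold change was 1.11 for MRPS10, 0.83 for MRPS18B, 0.31 for MRPS18A and 0.81 for MRPL46. It was -0.02 for MRPS30, -0.46 for MRPL45 and -0.33 for MRPL42.

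Most matches of the other motifs began before the start, all 8 of NRF1, 13 of 14 of ETS and 8 of 9 of the E-box. Stretches free of annotated exons are given for a gene that rose with the ETS letters, a gene that rose with the NRF1 letters and a gene that fell with none of the 5 motifs, with any match in capitals:
MRPL3: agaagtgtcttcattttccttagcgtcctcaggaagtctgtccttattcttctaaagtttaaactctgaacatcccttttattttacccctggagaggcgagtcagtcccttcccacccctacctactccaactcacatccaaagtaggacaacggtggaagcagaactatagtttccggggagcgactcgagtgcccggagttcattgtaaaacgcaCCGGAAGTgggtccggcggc
MRPL17: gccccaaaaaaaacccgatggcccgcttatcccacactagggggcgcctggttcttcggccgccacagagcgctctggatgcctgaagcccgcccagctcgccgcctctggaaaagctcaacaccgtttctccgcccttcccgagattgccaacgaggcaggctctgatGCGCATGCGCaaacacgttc
MRPS6: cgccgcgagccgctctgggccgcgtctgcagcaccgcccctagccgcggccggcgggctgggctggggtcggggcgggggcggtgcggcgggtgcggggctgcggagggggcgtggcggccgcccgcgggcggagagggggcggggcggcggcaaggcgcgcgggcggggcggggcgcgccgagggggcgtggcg
The MRPL3 stretch is chr3:131502984-131503221 (minus strand), that of MRPL17 is chr11:6683402-6683590 (minus) and that of MRPS6 is chr21:34073328-34073522 (plus). The MRPS6 stretch lies inside the gene span given above, because the RefSeq start of its window is further along the gene. It is therefore not sequence before the outermost annotated start of MRPS6. In MRPL17 the capitals are 2 overlapping NRF1 matches, 1 on each strand. Of the 12 genes with ETS letters, 6 rose and 3 fell at 48 h, beside 29 and 15 of the 57 without. Of the 6 with NRF1 letters, 4 rose and 1 fell, beside 31 and 17 of the 63 without. Of the 9 with the E-box, 4 rose and 3 fell, beside 31 and 15 of the 60 without. None of these differences was tested.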

How the data were processed

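RNA-seq of 12 HCT116 samples was analysed from the deposited table of estimated counts per gene, 60987 rows, of which 316 without a gene name (0.762% to 1.55% of counts by group) entered neither library sizes nor tests. Per the submitters' processing notes, fastp, HISAT, RSEM and GRCh38 were used; their order and versions, the annotation and strand use are not given in the sources used here. Estimated counts deposited by the authors were rounded to whole numbers. They were tested with edgeR 4.0.16 (R 4.3.3; TMM, filterByExpr with at least 10 counts and 15 in total, glmQLFit with 4 group means over 12 samples). The log2 fold change was divided by the square root of F for the SE. Adjusted p-values cover all 16994 genes tested, and the biological coefficient of variation was 6.40%. Levels per length used the deposited gene length. Coordinates, exon overlaps and start codons came from GENCODE release 29, not stated to be the authors' own.

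Named genes were the 5 largest calls in each direction and contrast with a mean of at least 5 CPM, the 3 highest and 3 lowest levels per length, and genes of fixed interest; of each related list, the 3 smallest adjusted p at 48 h and genes of fixed interest. The members were fixed by symbol alone, but this gene family and the related lists were picked with earlier results of these data known. Of 76 pseudogene rows of these genes 1, MRPS31P4, exceeded 10% of its parent's counts (61.9%), so MRPS31 is uncertain. The fit was tested on simulated data. The 20 alternatives were 3 scalings, DESeq2 1.42.0, 2 filters, a replicate block, the compared groups alone and 12 left-out libraries. Protein sequences were not used here.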

Additional observations from a re-analysis of the deposited data

Results flagged for a closer look

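The deprivation effect differed between 48 h and 24 h, by the interaction term of the edgeR fit over all genes, for 16 of the genes named above. Each value here is the log2 effect at 48 h minus that at 24 h. The effect was more positive at 48 h for MRPL24 (0.70), MRPL46 (0.70), MRPS11 (0.57), MRPL15 (0.55), MRPL36 (0.52), MRPS14 (0.50), MRPL32 (0.44), MRPS16 (0.33), MRPS18C (0.30) and MRPS18B (0.25). For MRPS14 and MRPL32 this was a smaller fall at 48 h, and for the others a larger rise. The effect was more negative at 48 h for MRPL55 (-0.63), MRPS6 (-0.53), MRPL11 (-0.47), MRPL14 (-0.43), MRPL33 (-0.40) and MRPL45 (-0.29). Time in full medium moved some of these genes as well, MRPL46 by -0.52, MRPS11 by -0.37, MRPL32 by -0.31, MRPL55 by 0.42 and MRPS6 by 0.44, and the part of the control samples in the difference was not tested. The call for MRPS16 was lost without control sample 2 of 24 h (0.26, adjusted p = 0.0515). The MRPL33 call was lost without control sample 1 of 24 h or 2 or 3 of 48 h, or without deprived sample 1 or 2 of 24 h or 1 of 48 h (-0.33 to -0.40). The MRPS18B call was lost without control sample 3 of 24 h or 1 of 48 h or deprived sample 3 of 48 h (0.21 to 0.22). The MRPS18C call was lost without control sample 3 of 24 h or 1 of 48 h or deprived sample 1 or 3 of 24 h (0.27 to 0.28), and with no filter on low counts (0.31).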

How the results depend on the processing

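Over the alternatives the number of members called stayed within 1.5 times for both deprivation contrasts and for the difference between the times. With library totals alone 28 members fell with time in controls, not 17; leaving out 1 library gave 10 to 20 there, and 7 to 15 for those that fell with time in deprived cells; the cause was not tested. The YY1 share went from 30.4% to 7.25% when only the 250 bases before the start were searched, by construction of the window. Values near 0 changed sign: MRPL11 at 24 h was -0.031 with upper-quartile scaling and -0.034 with library totals, and -0.022 to 0.12 without 1 library. Without 1 library MRPS30 at 48 h ran from -0.076 to 0.019, and the difference between the times ran from -0.046 to 0.13 for MRPL17, -0.22 to 0.032 for MRPL23, -0.038 to 0.061 for MRPS30 and -0.059 to 0.054 for MRPS36, which was -0.0057 with a minimum mean of 5 CPM. Of the alternatives for single genes, 1559 kept direction and side of the threshold, 57 lost and 18 gained a call, and 18 changed sign.

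Same-numbered samples showed no strong shared deviation (correlations 0.003, -0.009 and 0.026 at 24 h and 0.110, 0.034 and -0.005 at 48 h). Correlations of unlike-numbered samples ran from -0.043 to 0.041 at 24 h and from -0.102 to 0.070 at 48 h. With 3 samples a group these values cannot exclude a pairing, and the main fit used none. With the replicate number as a block 28 members rose and 21 fell at 24 h, 40 rose and 23 fell at 48 h, and the effect differed upwards for 23 and downwards for 9.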
